A study of Macaca mulatta with 45 samples.

Results

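The genes described here code for the T cell receptor complex, its CD4 and CD8 coreceptors and 1 granzyme, as measured in the brains of irradiated rhesus macaques. They were chosen by symbol: the 7 rows of the gene table named CD3E, CD3G, CD247, CD4, CD8A, CD8B and GZMK, out of 30246 gene IDs. Their Ensembl identifiers are ENSMMUG00000017593 (CD3E), ENSMMUG00000017600 (CD3G), ENSMMUG00000008158 (CD247), ENSMMUG00000013202 (CD4), ENSMMUG00000003524 (CD8A), ENSMMUG00000003532 (CD8B) and ENSMMUG00000020171 (GZMK). Total RNA of 3 brain regions was sequenced from 15 animals in 3 groups of 5, with 1 library per animal and region, so that 45 libraries formed 9 groups. The regions were deep white matter, hippocampus and dorsolateral prefrontal cortex. The Control animals were irradiated too: they had received 10 Gy to the thorax alone, and their labelled brain dose was 0.1 Gy. In the fWBI group the whole brain had been exposed in 8 fractions of 5 Gy (40 Gy in all), with necropsy 12 months later. In the TBI group the total body had been exposed once, to 6.75, 7.2 or 8.05 Gy, and necropsy followed after 6 to 9 years. These groups thus differ in dose, fractionation, exposed volume and elapsed time, whose effects cannot be told apart.

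T cells recognise peptides on major histocompatibility complex (MHC) molecules through a clonal receptor that cannot signal by itself. The receptor assembles with the CD3 chains, among them CD3 epsilon (CD3E) and CD3 gamma (CD3G), and with the zeta chain CD247, whose cytoplasmic motifs start the signal. CD4 binds MHC class II on presenting cells, and the CD8 dimer of CD8A with CD8B, or of CD8A with itself, binds MHC class I. Several of these genes are not private to T cells: CD4 is also made by macrophages and microglia, CD8A by macaque natural killer (NK) cells, and CD247 serves NK receptors. CD8B is more closely tied to T cells, and granzyme K (GZMK) is a protease of cytotoxic granules. The healthy brain holds few T cells.

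The 7 genes did not share 1 pattern. In white matter of fWBI animals the CD4 level lay above that of every other library of the series. Its difference from Control or TBI animals there did not pass the test, and against Control CD4 passed in prefrontal cortex alone. CD8B had 115 reads in fWBI white matter and at most 26 in any other group. The filter on low counts left it out in white matter, and it passed against both groups in a fit without that filter. No irradiation comparison of CD8A passed the test. Between TBI and Control animals none of the 7 genes passed it. The genes of the receptor chains and GZMK were seldom counted, with at most 27 reads in any library. In a bulk tissue library fewer cells of a type and less RNA per cell cannot be told apart, so none of the values below counts cells.

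Library totals ran from 6625435 to 12541507 counts, and levels are given as CPM, counts scaled to a common library total. At this depth 3 reads over the 5 libraries of a group, the most that a count of 0 allows, come to 0.0576 to 0.0705 CPM, which covers counting error only. Some libraries stood apart. The summed level of 13 pan-neuronal genes was 11287 and 5362 CPM in control white matter libraries 1 and 3, against 813 to 1171 CPM in the other 3, and was 710 to 1390 CPM in the white matter of irradiated animals. TBI animal 4 had 64.9 to 130 CPM of 7 blood and erythrocyte genes in its 3 regions, where no other library passed 5.12 CPM. The animals had been perfused with saline. The largest disturbance for the genes described here was in CD4 itself: control animals 1 and 2 were lowest of the control animals in all 3 regions. For fWBI against Control in white matter, and for white matter against the other regions in Control animals, the 7 genes are also given without control white matter libraries 1 and 3 and without control animals 1 and 2. Other comparisons are given without them only where named, and the gene lists with all libraries. The part of the blood genes of TBI animal 4 was not tested.

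Over the 45 libraries CD4 collected 13999 reads and CD8A 2318, and both had reads in every library. The other members were rare: 249 reads of CD3E, 186 of CD8B, 173 of CD247, 160 of GZMK and 50 of CD3G. CD3G was at 0 in 18 libraries and CD8B in 13. These are raw reads of genes of different length and do not rank the transcripts. EdgeR's default filter kept CD4 and CD8A in all 24 comparisons, CD8B only between regions of the fWBI animals, and CD3E only where all 45 libraries were fitted. CD3G, CD247 and GZMK passed in none, so their fold changes below come from the same fit without a filter. P-values are two-sided, from edgeR's quasi-likelihood test, adjusted by the Benjamini-Hochberg method over all genes tested in a comparison; a gene is called when the adjusted p is under 0.05. Fold changes are log2 values ± their standard error (SE), with 5 animals per group.

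Among the receptor chains, CD3E was the most often counted, and its reads were most frequent in the hippocampus. In control hippocampus the 5 animals had 4, 2, 19, 13 and 8 reads, and in control white matter 0, 1, 3, 1 and 3. In white matter the TBI animals had 1, 3, 10, 2 and 5 reads and the fWBI animals 4, 9, 14, 8 and 3. The white matter ranges of the 3 groups overlapped, although 4 of 5 fWBI libraries lay above the highest control library in CPM. The fit without a filter gave 2.04 ± 0.66 for fWBI against Control in white matter (adjusted p = 0.0578) and 1.34 ± 0.70 for TBI (adjusted p = 0.424). The first value crossed the threshold in some alternatives, among them the DESeq2 test (2.11, adjusted p = 0.0439), and moved to 1.54 (adjusted p = 0.25) without control animals 1 and 2 and to 1.93 (adjusted p = 0.171) without control white matter libraries 1 and 3. Outside white matter the fWBI values were -0.10 ± 0.55 in hippocampus, where the 5 libraries held 27, 7, 8, 4 and 5 reads, and -0.75 ± 0.51 in prefrontal cortex, where they held 5, 4, 4, 2 and 1.

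Of the 3 members tested for it, CD3E alone had an fWBI effect called different between regions, on few reads and not in every alternative. The effect in white matter was larger than in prefrontal cortex by 2.90 ± 0.78 (adjusted p = 0.0153) and larger than in hippocampus by 2.18 ± 0.70 (adjusted p = 0.0474). In this fit of all 45 libraries, with animal as a block, 3 members were tested and 1 was called in each of these contrasts, where 10 and 9% of all genes passed. Without a filter the first was 2.85 ± 0.79 (adjusted p = 0.0245), and the second lost its call (2.15 ± 0.71, adjusted p = 0.0776). Both calls were lost without control white matter libraries 1 and 3 (adjusted p = 0.0709 and 0.194) and without control animals 1 and 2 (0.0557 and 0.0891). The first was also lost without fWBI animal 3 (2.64, adjusted p = 0.0519), which had the most CD3E reads in white matter, and was not tested without control animal 3 or fWBI animal 1, where CD3E fell below the filter. The second was lost in 6 of 8 fits that left out 1 animal, without control animals 1 and 4 and fWBI animals 2, 3, 4 and 5, with adjusted p-values up to 0.149. For TBI the same contrasts gave 2.25 ± 0.82 (adjusted p = 0.237) and 2.06 ± 0.75 (adjusted p = 0.225), with 0 members called among 0.0181% and 0.00602% of all genes. Hippocampus against prefrontal cortex had 0 members called for either treatment, in contrasts where 0% of all genes passed; at an unadjusted p under 0.05 these 2 contrasts held 302 genes for fWBI and 434 for TBI, and CD3E stood at 0.72 ± 0.66 and 0.19 ± 0.65.

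CD3G, the gamma chain, had at most 6 reads in any library. Its highest group was fWBI white matter, with 4, 2, 6, 1 and 0 reads, followed by TBI white matter with 0, 1, 4, 1 and 2. The 5 control white matter libraries held 1, 0, 1, 0 and 0 reads. The 3 ranges overlapped, and the fWBI value of 2.24 ± 0.97 against Control was not called (adjusted p = 0.177). It was not called without control white matter libraries 1 and 3 (4.34 ± 1.60, adjusted p = 0.149) or without control animals 1 and 2 (2.46 ± 1.23, adjusted p = 0.307) either. In the first of these fits the 3 remaining control libraries are all at 0, so its value depends on the prior count and is no bound.

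CD247 ran the other way across regions: its reads were most frequent in prefrontal cortex. There the Control animals had 6, 3, 5, 6 and 4 reads, the TBI animals 3, 13, 4, 9 and 3, and the fWBI animals 8, 11, 4, 8 and 5. In white matter the same groups had 2, 1, 3, 1 and 2, then 1, 0, 0, 2 and 3, then 1, 2, 5, 2 and 3 reads. Without a filter CD247 was lower in white matter than in the cortex in fWBI animals (-1.43 ± 0.51, adjusted p = 0.0249, lower in 4 of 5 animals) and in TBI animals (-2.10 ± 0.73, adjusted p = 0.0166, lower in 4 of 5); in Control animals it was lower in 5 of 5 but not called (-1.37 ± 0.60, adjusted p = 0.0947), nor was it without libraries 1 and 3 (-1.90, adjusted p = 0.0958) or without animals 1 and 2 (-1.29, adjusted p = 0.23). Without a filter 47.7% of all genes passed in that comparison in fWBI animals, 49% in TBI animals and 36.9% in Control animals. No irradiation comparison called CD247, with values from -0.49 to 0.86. For fWBI against Control in white matter it stood at 0.35 ± 0.65, at 0.71 without control white matter libraries 1 and 3 and at 0.22 without control animals 1 and 2.

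**Figure D1:**
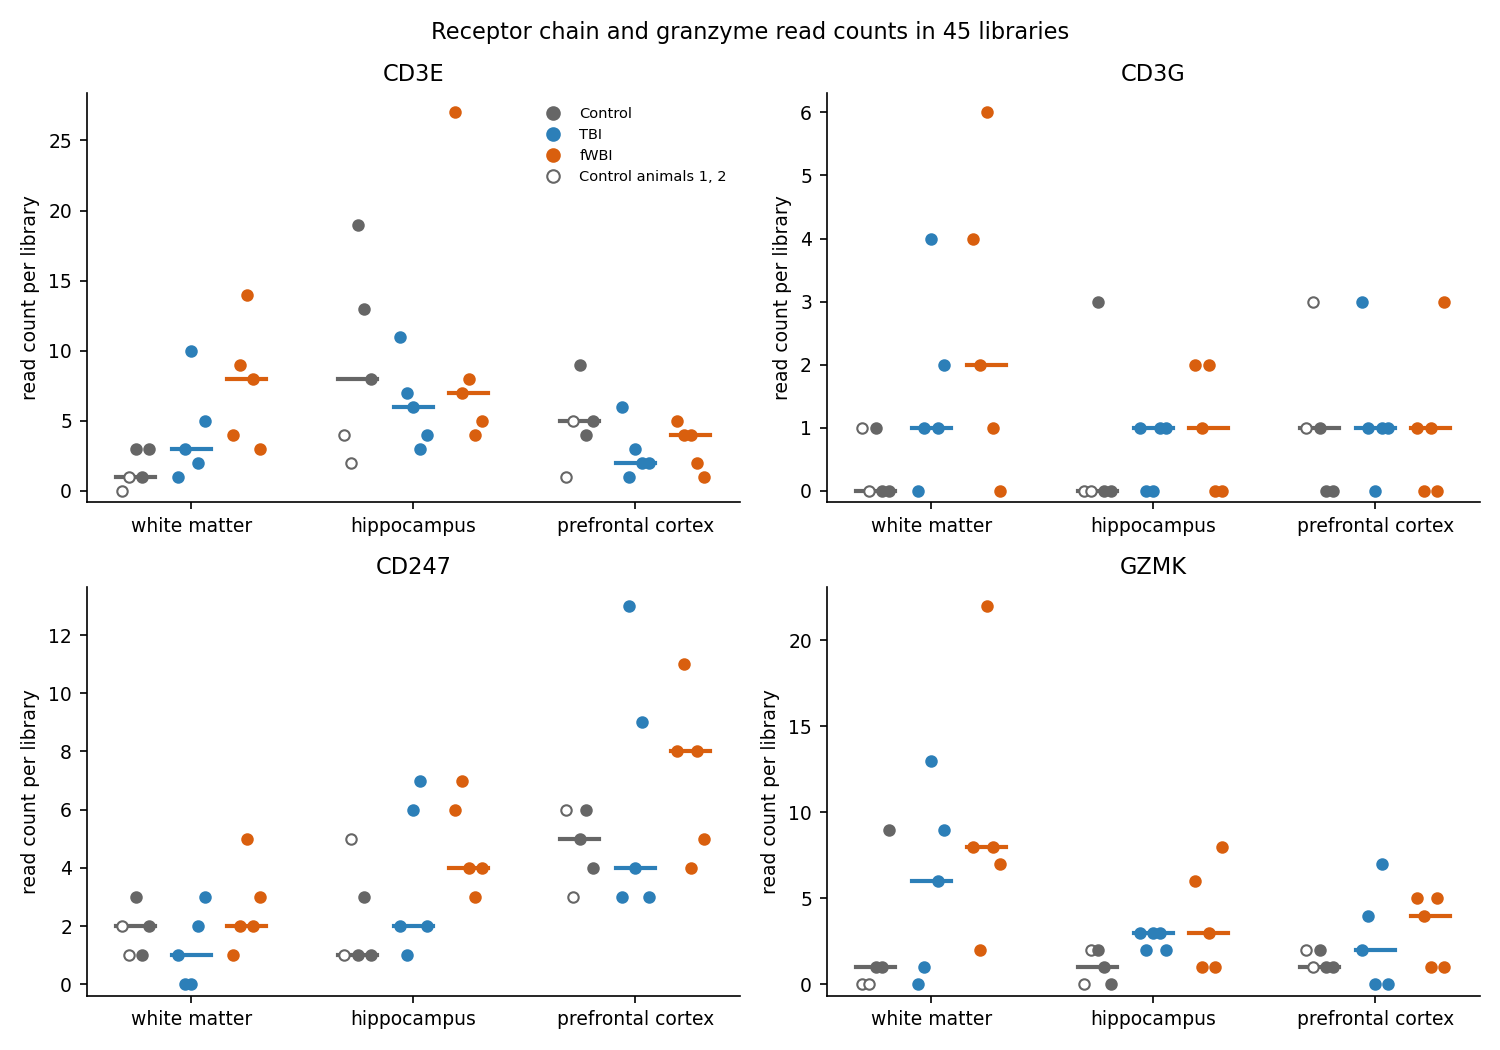
Read counts of CD3E, CD3G, CD247 and GZMK in each of 45 libraries, by region and treatment; each point is 1 library, bars are group medians, and open points are control animals 1 and 2. CD3E is most frequent in hippocampus, CD247 in prefrontal cortex, and no CD3G count passes 6.

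CD4 was the most often counted of the 7 genes. In white matter the fWBI animals had 109, 140, 129, 91.2 and 98.6 CPM, the TBI animals 49.0, 37.9, 34.6, 59.1 and 49.8 CPM, and the Control animals 2.21, 1.82, 51.1, 68.7 and 33.0 CPM. All 5 fWBI libraries lay above all 10 others, with no overlap, and the TBI range lay inside the control range. In hippocampus the fWBI animals had 30.6, 39.5, 31.6, 23.0 and 41.5 CPM, the TBI animals 13.6, 9.59, 11.5, 12.5 and 19.3 CPM, and the Control animals 4.75, 6.01, 25.9, 15.6 and 8.33 CPM. Here fWBI was clear of TBI, while 1 control library, at 25.9 CPM, exceeded the lowest fWBI library. In prefrontal cortex the fWBI animals had 18.3, 19.9, 21.4, 15.5 and 25.2 CPM, the TBI animals 6.19, 5.67, 5.90, 7.70 and 13.5 CPM, and the Control animals 3.31, 3.02, 11.8, 10.4 and 7.49 CPM. The fWBI libraries again lay above every library of the other groups, without overlap.

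**Figure D2:**
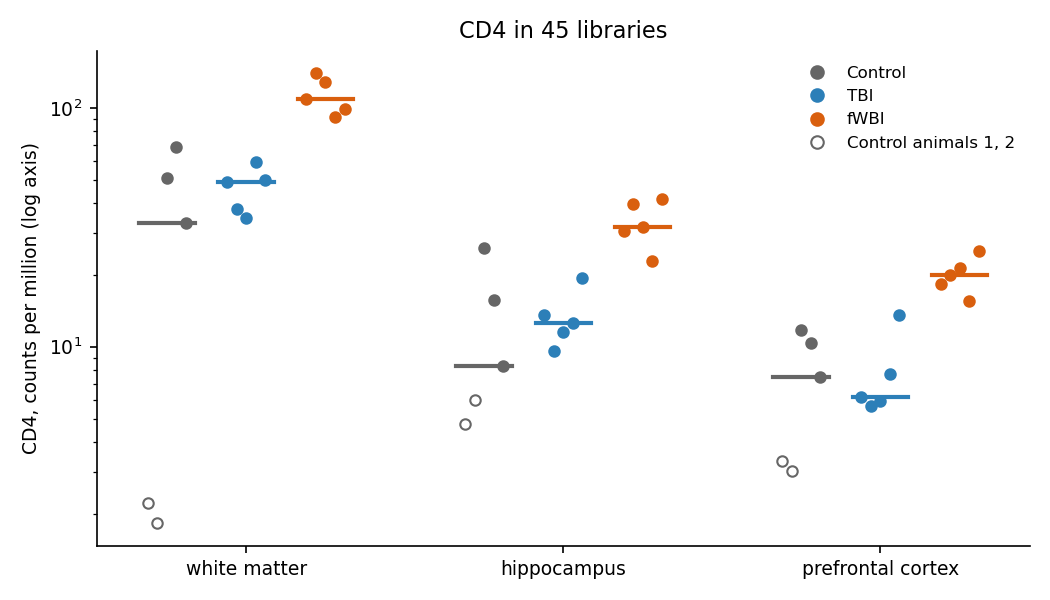
CD4 level in CPM (log axis) in each of 45 libraries, by region and treatment; points are libraries, bars are group medians, and open points are control animals 1 and 2. In white matter the fWBI libraries sit between 91.2 and 140 CPM, above all others, and control animals 1 and 2 sit at 2.21 and 1.82 CPM.

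Against Control the fWBI animals were higher in CD4 by 1.49 ± 0.33 in prefrontal cortex, which was called (adjusted p = 0.0396, 5 of 5 animals above the control mean). The values were 1.82 ± 0.64 in white matter (adjusted p = 0.0651) and 1.43 ± 0.36 in hippocampus (adjusted p = 0.0861), neither called. In these 3 comparisons 2 members were tested, CD4 and CD8A, and the called members numbered 1 in prefrontal cortex and 0 in the other regions. Of all genes tested, 1.17% passed in prefrontal cortex, 16.8% in white matter and 0.742% in hippocampus. Which region passed depended on the animals in the fit. Without control white matter libraries 1 and 3 white matter stood at 1.68 ± 0.59 (adjusted p = 0.0888). Without control animals 1 and 2 it was called, at a smaller fold change and a smaller error (1.12 ± 0.21, adjusted p = 0.00335), prefrontal cortex was not (1.02 ± 0.26, adjusted p = 0.0927), and hippocampus stood at 0.95 ± 0.29 (adjusted p = 0.106). The prefrontal call was also lost in 8 of 10 fits that left out 1 animal (all but control animals 3 and 4; adjusted p 0.0548 to 0.0872 in the 8). White matter was called when control animal 4 was left out (2.31, adjusted p = 0.0275), and hippocampus when control animal 3 was left out (1.93, adjusted p = 0.00554). With the DESeq2 test hippocampus was called as well (1.43, adjusted p = 0.00641). The direction was upward in every alternative run for the 3 regions.

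Control animals 1 and 2 were low in CD4 in every region. Their mean was lower than that of control animals 3 to 5 by a factor of 25.3 in white matter, 3.12 in prefrontal cortex and 3.09 in hippocampus, and in each region their higher value lay below the lowest of the other 3. In these animals white matter held less CD4 than their own prefrontal cortex, with ratios of 0.665 and 0.604, where the other 13 animals had ratios from 3.68 to 7.91. Lists of microglia, monocyte and macrophage, and MHC class II genes were not low in both animals: in white matter animal 2 had the highest control sums of all 3 lists (687, 1203 and 152 CPM), and animal 1, with 11287 CPM of neuronal genes, the lowest (411, 484 and 65.6 CPM). Of 15288 genes with a mean of at least 10 counts, 31 were lower in both animals than in the other 3 in every region, and 6 of them, CD4 included, by a factor of at least 1.39, the smallest factor of CD4 over the regions. Beside CD4 these were a gene without a symbol (smallest factor 7.83), ARL6IP1 (6.64), ADGRE1 (2.33), VSIG1 (2.17) and FUOM (1.49). ADGRE1, a surface receptor of macrophages, had 0 and 2 reads in the white matter of animals 1 and 2 and 9, 33 and 11 in the others. The 2 animals were set apart after their CD4 values were seen.

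No difference in CD4 between TBI and Control animals passed the test. In the order white matter, hippocampus, prefrontal cortex the values were 0.56 ± 0.63, 0.12 ± 0.36 and 0.12 ± 0.34 (adjusted p = 0.70, 0.929 and 0.928), and without control animals 1 and 2 all 3 turned negative (-0.14, -0.35 and -0.35). In these comparisons 0 of 2 tested members were called, while 0.0722%, 0% and 0% of all genes passed in the same order; at an unadjusted p under 0.05 the last 2 held 1661 and 1826 genes, and the DESeq2 test called 63 and 254 genes there, none of them a member.

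Between the irradiated groups the CD4 ranges did not overlap in any region: each of the 5 fWBI libraries exceeded all 5 TBI libraries in white matter, hippocampus and prefrontal cortex. The share of all genes whose ranges were apart in the same way is not given, here or for the other ranges described. The fit gave 1.26 ± 0.63, 1.31 ± 0.35 and 1.38 ± 0.33, none called (adjusted p = 0.291, 0.222 and 0.161), in comparisons that called 7.36, 0.339 and 0.29% of all genes and 0 of 2 members. That fit shares its spread estimate with the Control animals of the region. Fitted on the irradiated groups alone, all 3 were called (adjusted p = 0.000317, 0.00766 and 0.0199) with fold changes of 1.26, 1.31 and 1.38. The fWBI effect on CD4 was not shown to differ between regions: the difference was 0.78 ± 0.44 between white matter and prefrontal cortex (adjusted p = 0.286), and 0.09 ± 0.26 (adjusted p = 0.913) without control animals 1 and 2.

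CD8A, the alpha chain of the CD8 coreceptor, was not called in any irradiation comparison. In white matter the Control animals had 8.93, 9.87, 10.3, 10.4 and 1.60 CPM, the TBI animals 14.7, 8.95, 14.2, 10.5 and 12.0 CPM, and the fWBI animals 2.95, 7.90, 16.3, 1.96 and 3.63 CPM. The ranges of all 3 groups overlapped, with 4 of 5 fWBI libraries below the whole TBI range and the fifth above it. In hippocampus the same groups had 7.25, 4.24, 4.31, 5.30 and 0.587 CPM, then 5.17, 4.14, 3.74, 6.94 and 4.33 CPM, then 1.76, 3.75, 2.97, 0.797 and 2.53 CPM. All 5 fWBI hippocampi lay below the control mean, and the ranges overlapped again. In prefrontal cortex the ranges were 1.82 to 6.49 CPM in Control, 2.40 to 5.68 CPM in TBI and 1.77 to 4.03 CPM in fWBI animals.

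For fWBI against Control the values were, in the same order of regions, -0.38 ± 0.51, -0.90 ± 0.45 and -0.31 ± 0.31 (adjusted p = 0.688, 0.473 and 0.70). The white matter value was -0.20 without control white matter libraries 1 and 3 and -0.22 without control animals 1 and 2 (adjusted p = 0.899 and 0.88). Against TBI they were -0.95 ± 0.50, -1.08 ± 0.44 and -0.25 ± 0.31 (adjusted p = 0.325, 0.586 and 1.0). Without fWBI animal 3, which alone had 16.3 CPM in white matter, the white matter difference from TBI was called (-1.62, adjusted p = 0.0473). Some animals were low in CD8A in all regions: control animal 5 had 16, 5 and 16 reads in white matter, hippocampus and prefrontal cortex, and fWBI animal 4 had 20, 10 and 19.

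CD8B, the beta chain, was rare outside the white matter of the fWBI animals. Control white matter held 6, 0, 0, 0 and 2 reads and TBI white matter 2, 0, 1, 0 and 2. The fWBI white matter libraries held 25, 19, 10, 56 and 5 reads, or 2.23, 2.03, 1.03, 5.48 and 0.442 CPM. All 5 lay above the TBI range, and 4 of 5 above the highest control library, which had 0.662 CPM. CD8B was left out by the filter in these comparisons. Without it CD8B was higher in fWBI white matter than in Control (3.59 ± 0.84, adjusted p = 0.00928, 5 of 5 animals above the control mean) and than in TBI (4.19 ± 0.90, adjusted p = 0.00948, 5 of 5), where 10.1% and 4.22% of all genes passed; it was the only member called in either. The 10 fits that left out 1 animal kept each call (2.93 to 5.08 against Control and 3.53 to 4.57 against TBI), and so did the DESeq2 test (3.67 and 4.35), the fit without control animals 1 and 2 (4.74 and 4.19) and the fit without control white matter libraries 1 and 3 (4.70 and 4.19).

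In fWBI hippocampus CD8B reads numbered 9, 3, 1, 3 and 10, against 2, 1, 1, 0 and 0 in Control and 3, 0, 2, 5 and 2 in TBI. The ranges overlapped, and the value against Control was 2.28 ± 0.77 (adjusted p = 0.317). Prefrontal cortex held 8 CD8B reads in the Control group, 2 in the TBI group and 6 in the fWBI group. The ratio of CD8B to CD8A reads differed between groups, with no test: fWBI white matter had 35.3 CD8B reads per 100 CD8A reads and fWBI hippocampus 23.0, while the other 7 groups had 0.887 to 4.90. This ratio compares groups and is not a ratio of molecules, since gene length is not accounted for. It rested on both genes: animal 4 had the most CD8B reads of the fWBI white matter (56) and the fewest of CD8A (20), and animal 3 the most of CD8A (158) with 10 of CD8B. The spans of CD8A and CD8B overlap in the RefSeq gene table, and a pseudogene overlaps CD8A there; how such reads were assigned is not given in the sources used here.

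**Figure D3:**
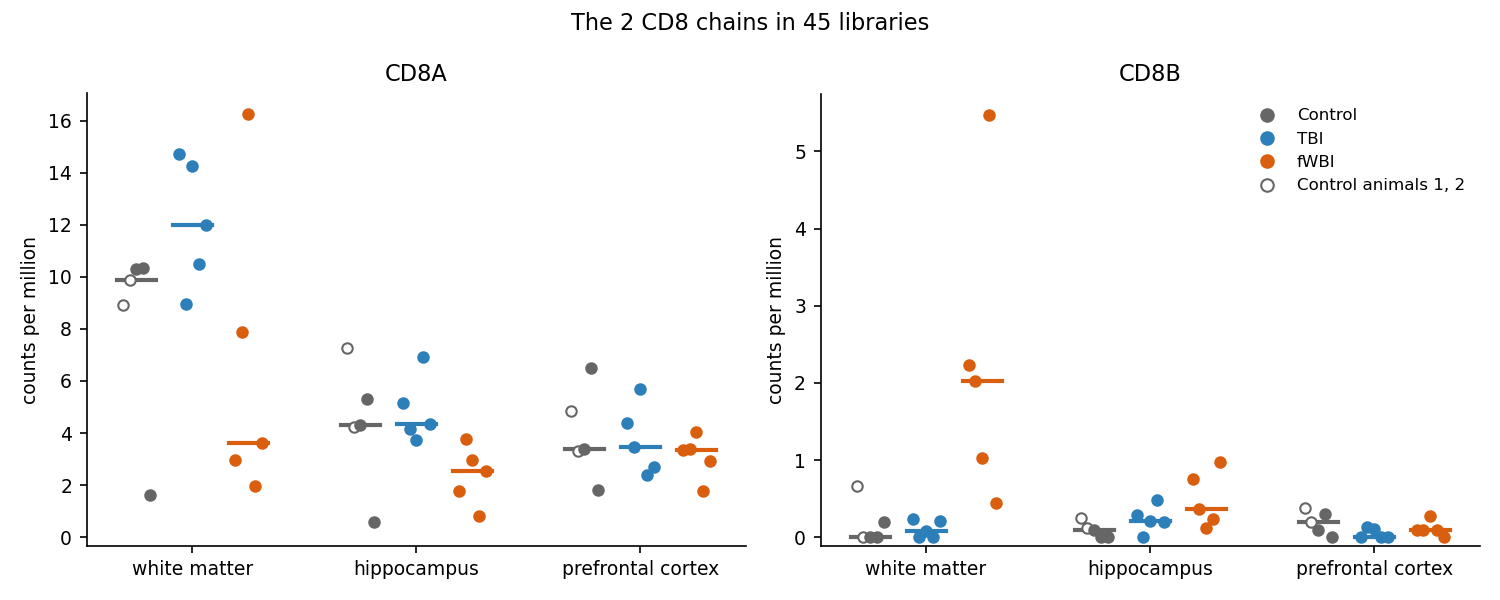
CD8A (left) and CD8B (right) in CPM on linear axes in each of 45 libraries, by region and treatment; points are libraries, bars are group medians, and open points are control animals 1 and 2. The fWBI white matter libraries span 0.442 to 5.48 CPM of CD8B, while their CD8A values run from 1.96 to 16.3 CPM and overlap both other groups.

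GZMK, the granzyme, was counted most often in white matter of the irradiated animals, with 47 reads in fWBI and 29 in TBI; control white matter held 11, of which 9 came from animal 5. In white matter the fWBI animals had 8, 2, 22, 8 and 7 reads, the TBI animals 0, 1, 13, 6 and 9, and the Control animals 0, 0, 1, 1 and 9. The highest control library, animal 5, exceeded 4 of the 5 fWBI libraries, so that the groups overlapped. The fit without a filter gave 1.88 ± 0.90 for fWBI against Control (adjusted p = 0.236) and 1.35 ± 0.94 for TBI (adjusted p = 0.574). The fWBI value was 1.28 without control white matter libraries 1 and 3 and 1.18 without control animals 1 and 2 (adjusted p = 0.562 and 0.55). In hippocampus the fWBI value was 1.57 ± 0.69 (adjusted p = 0.511), from 6, 1, 3, 1 and 8 reads against 0, 2, 2, 1 and 0. In prefrontal cortex it was 0.94 ± 0.77 (adjusted p = 0.655), with 16 reads against 7 over the 5 libraries of each group.

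**Figure D4:**
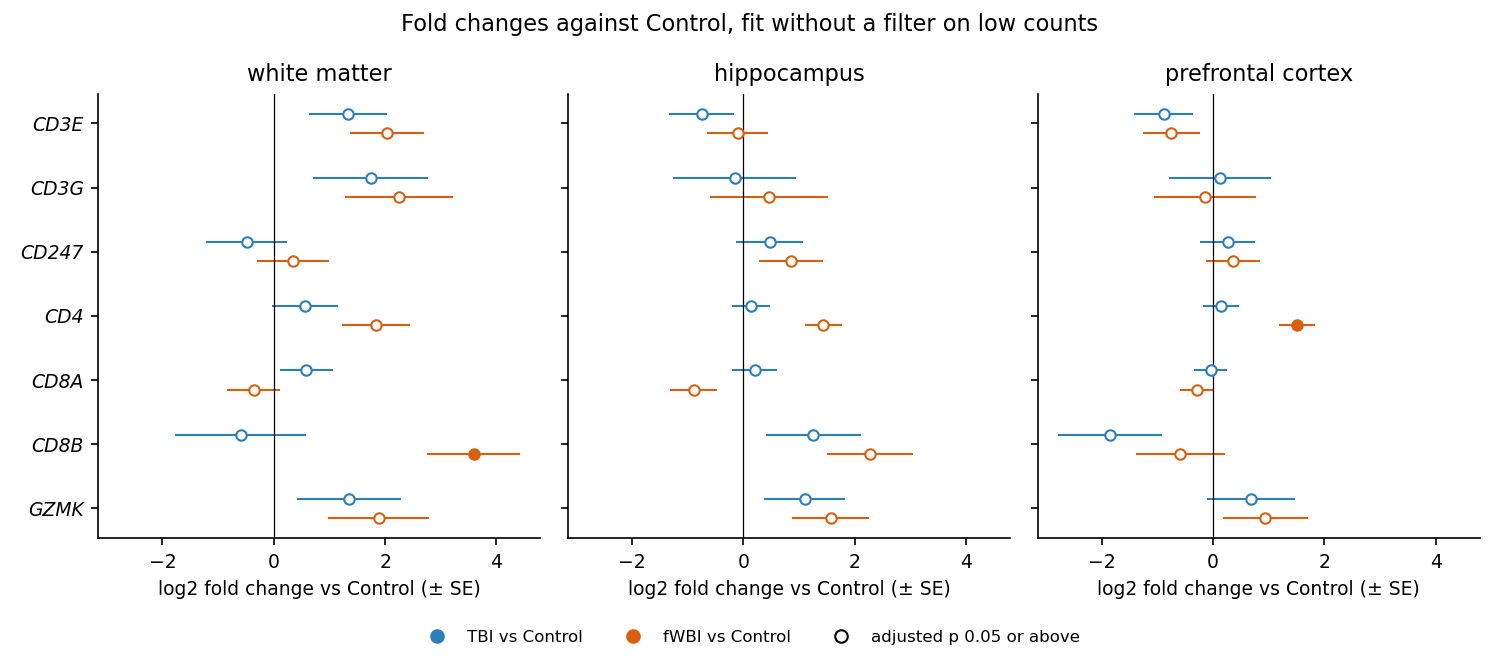
Log2 fold changes of the 7 genes against Control (points) with their SE (bars) in 3 regions, for TBI and fWBI, from the fit without a filter on low counts; filled points have an adjusted p under 0.05. Filled are CD8B in fWBI white matter (3.59) and CD4 in fWBI prefrontal cortex (1.51).

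With all 7 genes in the fit without a filter, the median fold change of fWBI against Control was 1.88 in white matter, with 6 of 7 values above 0, 0.86 in hippocampus with 5 of 7, and -0.15 in prefrontal cortex with 3 of 7. Over all genes in these fits the median was -0.02, 0.00 and 0.00. For TBI the members' medians were 0.59, 0.20 and 0.12, with 5, 5 and 4 of 7 above 0. Both comparisons use the same Control libraries and are not independent. Only CD4 and CD8A passed the filter in these comparisons, so the other genes enter with few reads. The fWBI median in white matter is the value of GZMK, which was not called. The share of all genes above 0 is not given, nor are the medians without the control animals or libraries set apart above.

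Between regions, most calls of the coreceptors were toward white matter. White matter exceeded prefrontal cortex in CD4 in all 3 groups: by 1.66 ± 0.51 in Control (adjusted p = 0.0149, 3 of 5 animals), 2.48 ± 0.13 in fWBI (adjusted p = 1.92e-09, 5 of 5) and 2.66 ± 0.15 in TBI (adjusted p = 4.21e-10, 5 of 5). CD8A was higher too, by 1.05 ± 0.27 in Control (adjusted p = 0.00566), 0.79 ± 0.31 in fWBI (adjusted p = 0.0347) and 1.78 ± 0.21 in TBI (adjusted p = 2.24e-06). CD8B, tested between regions of the fWBI animals only, was higher in their white matter by 3.98 ± 0.77 (adjusted p = 0.000408). It passed the filter mainly through these white matter libraries, the group in which it was high. Of the fits that left out 1 animal, 4 tested it and called it (3.40 to 4.78), and in the remaining one it fell below the filter. Without a filter CD8B stood at 3.95 ± 0.70 (adjusted p = 6.91e-05). CD4 and CD8A, the members tested in each group, were both called in Control, fWBI and TBI animals, where 61, 73 and 75.2% of all genes passed. Without a filter the control values of CD4 and CD8A were 1.67 and 1.07, and remained called without libraries 1 and 3 (2.03 and 1.07) and without animals 1 and 2 (2.46 and 0.93). With the filter the control value of CD4 lost its call without animal 3 (1.48), 4 (1.24) or 5 (1.40), and that of CD8A in fWBI without animal 2 (0.68, adjusted p = 0.12) or 3 (0.36, adjusted p = 0.25).

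Against hippocampus, white matter was higher in CD8A in all groups, by 1.03 ± 0.27 in Control, 1.28 ± 0.32 in fWBI and 1.35 ± 0.21 in TBI (adjusted p = 0.00683, 0.00279 and 2.94e-05). CD4 was higher by 1.79 ± 0.12 in fWBI and 1.87 ± 0.14 in TBI (adjusted p = 3.41e-08 and 1.34e-08) but stood at 0.92 ± 0.50 in Control (adjusted p = 0.139). Without control animal 1 or 2 the control value was called (1.25 and 1.31, adjusted p = 0.0393 and 0.0382), and so it was without libraries 1 and 3 (1.30, adjusted p = 0.0399). In the fit without a filter it was 0.93 (adjusted p = 0.138), and 1.72 without animals 1 and 2 (adjusted p = 0.000232); that of CD8A remained called without libraries 1 and 3 (1.02) and without animals 1 and 2 (1.17). CD8B was higher in fWBI white matter by 1.97 ± 0.61 (adjusted p = 0.0112), a call lost without animal 4 (1.25, adjusted p = 0.0846), and without a filter by 1.95 ± 0.56 (adjusted p = 0.00665, where 45.1% of all genes passed). Of CD4 and CD8A, 1 of 2 was called in Control and 2 of 2 in fWBI and in TBI animals, beside 56, 70.1 and 75.1% of all genes. CD3E ran against the coreceptors in Control animals: without a filter it was lower in white matter than in hippocampus (-2.45 ± 0.53, adjusted p = 0.0022, 5 of 5 animals) and than in prefrontal cortex (-1.56 ± 0.57, adjusted p = 0.0445, 5 of 5), with 32.8 and 36.9% of all genes called in these fits. The first call remained without libraries 1 and 3 (-2.28, adjusted p = 0.0124) and without animals 1 and 2 (-2.51, adjusted p = 0.00431), and the second was lost in both (-1.38 and -1.31, adjusted p = 0.158 and 0.125). In fWBI animals CD3E stood at -0.32 ± 0.45 between white matter and hippocampus, and at 1.29 ± 0.53 between white matter and prefrontal cortex (adjusted p = 0.0505, higher in 4 of 5 animals).

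Hippocampus and prefrontal cortex were closer to each other. CD4 was higher in hippocampus by 0.69 ± 0.12 in fWBI (adjusted p = 0.00143) and 0.79 ± 0.15 in TBI animals (adjusted p = 0.00106), in 5 of 5 animals each, and by 0.74 ± 0.51 in Control animals, not called (adjusted p = 0.383) although 5 of 5 were higher. The called members were 0 of 2 in Control, 1 of 3 in fWBI (CD8B being the third tested) and 1 of 2 in TBI animals, beside 15.1, 23.8 and 36.8% of all genes. Without a filter CD3E was also higher in the hippocampus of fWBI animals (1.61 ± 0.51, adjusted p = 0.04, 5 of 5), where 14.1% of all genes passed.

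By median level, fWBI white matter ranked first of the 9 groups for CD4, CD8B and CD3G, TBI white matter for CD8A and GZMK, control hippocampus for CD3E and fWBI prefrontal cortex for CD247. The only neighbours in any of the 7 orders whose ranges did not overlap were the first 2 for CD4, fWBI white matter with 91.2 to 140 CPM and TBI white matter with 34.6 to 59.1 CPM. Below them, control white matter (median 33.0 CPM), fWBI hippocampus (31.6 CPM), fWBI prefrontal cortex (19.9 CPM), TBI hippocampus (12.5 CPM), control hippocampus (8.33 CPM), control prefrontal cortex (7.49 CPM) and TBI prefrontal cortex (6.19 CPM) each overlapped the next.

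The genes whose level followed a member most closely over the 45 libraries, by Pearson's r of log2 CPM among 11998 genes with a symbol, differed between members. For CD4 they were CASP4, a protease of the inflammasome (r = 0.84), and the class II genes MAMU-DPA (0.82) and MAMU-DRB1 (0.82). After each library's group mean was subtracted they were ADGRE1 (0.68), DCAF17 (0.65) and WIF1 (0.63). For CD8A they were the coagulation factor gene F8 (0.74), PLD4 (0.69) and RASL12 (0.69), and after subtraction F8 (0.65), AIM2 (0.60) and CNGA3 (0.58). For CD3E they included MAN1A1 (0.70) and ZAP70 (0.62), the kinase that docks on the phosphorylated CD3 and zeta chains, and after subtraction they were RAD21 (0.71), ARFGEF1 (0.69) and OSBPL11 (0.68). Between members, r was 0.15 before and -0.04 after subtraction for CD4 and CD8A, -0.12 and 0.11 for CD3E and CD8A, and 0.29 and 0.36 for CD3E and CD4. Libraries of 1 animal are not independent, and the highest of many correlations are large by selection. Control animals 1 and 2 were low in both CD4 and ADGRE1.

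Other genes of the T cell receptor pathway were called in fWBI white matter, but most of them are shared with other leukocytes. Of 18 listed genes of the complex and its proximal signalling 9 were tested, and 5 were higher than in Control and 0 lower, with a median of 1.61 against -0.03 over all genes. Over all genes 16.8% were called in this comparison, in either direction, a share that the counts of the lists below are to be read against. They were CD48 (2.44 ± 0.28), PTPN22 (2.39 ± 0.29), the leukocyte phosphatase PTPRC or CD45 (1.85 ± 0.24), the exchange factor VAV1 (1.85 ± 0.32) and the adaptor LCP2 (1.10 ± 0.27), with adjusted p-values of 3.18e-05, 5.06e-05, 8.16e-05, 0.000755 and 0.0103. ZAP70 stood at 1.61 ± 0.54 (adjusted p = 0.0525). In hippocampus and prefrontal cortex 0 of 10 and 0 of 11 tested genes of this list were called, where 0.742 and 1.17% of all genes passed. The other 9 genes of the list were below the filter and had no test; those named are named after their values were seen. Over the 5 white matter libraries of each group, 7 had more reads in fWBI than in Control animals, among them 25 against 5 of CD96, 20 against 1 of TRAT1, 17 against 3 of SH2D1A, 12 against 1 of CD5, 9 against 0 of UBASH3A and 4 against 3 of ICOS. The remaining 2 had fewer, with 30 against 192 of THEMIS and 12 against 20 of GRAP2. These reads are not scaled to library totals, which were 9371091 to 11301562 in fWBI and 8308221 to 10195799 in control white matter. The share of all genes below the filter with more reads in fWBI is not given here. Read counts of this kind, also for the cytotoxic and NK genes below, are thus values only. The control reads of THEMIS were 133, 3, 51, 2 and 3, highest in libraries 1 and 3, which were also high in neuronal genes. Of T cell transcription factors and cytokine receptors 10 of 14 were tested in white matter. IKZF1 (1.25 ± 0.29) and IL2RG (1.22 ± 0.29) were higher, and TOX (-1.17 ± 0.21) and BCL11B (-1.23 ± 0.37) lower. The summed level of the 14 genes had a median of 63.5 CPM in fWBI and 51.5 CPM in control white matter. In control prefrontal cortex and hippocampus it was 61.9 and 81.7 CPM. The part of control libraries 1 and 3, high in neuronal genes, in the lower values was not tested.

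Of 6 cytotoxic effector genes 2 were tested in white matter and neither was called: CTSW stood at 0.17 ± 0.36 and KLRD1 at -0.72 ± 0.33. Below the filter, and named after their values were seen, GZMB had 18, 28, 3, 4 and 18 reads in fWBI white matter against 1, 1, 0, 2 and 0 in Control, and GZMA 7, 29, 0, 1 and 5 against 0 in all 5. The other 2 genes of the list had 42 reads over the fWBI group against 7 (CST7) and 15 against 6 (NKG7). The GZMA reads came mostly from animal 2, which had 2 reads of GZMK. Of the inhibitory receptors 2 of 4 were tested and 0 called, with CD160 at -0.07 ± 0.27 and CD244 at 1.30 ± 0.63.

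The partners of the coreceptors were higher in fWBI white matter. All 7 tested MHC class II and presentation genes, which include the ligands of CD4, were called upward, with a median of 3.05; CD74, the invariant chain, was higher by 3.05 ± 0.22 (adjusted p = 3.87e-07), MAMU-DMB by 3.16 ± 0.26 and MAMU-DRB1 by 3.05 ± 0.32. Class II also changed in the other regions, with 3 of 6 tested genes higher in hippocampus, CD74 among them (3.19 ± 0.37), and 3 of 6 in prefrontal cortex (CD74 by 2.82 ± 0.31), where 0.742 and 1.17% of all genes passed. Of the class I and peptide loading genes, the ligand side of CD8, 8 of 9 were higher in white matter, led by NLRC5 (1.41 ± 0.22) and PSMB9 (1.16 ± 0.18), with 0 of 9 in hippocampus and 0 of 9 in prefrontal cortex. Of the costimulation genes 4 of 7 were higher in white matter, among them CD40 (1.13 ± 0.20) and CD86 (1.18 ± 0.29), and 0 of 7 in each other region, where 0.742 and 1.17% of all genes passed. Of the entry and residency genes 8 of 12 were higher in white matter, including the integrins ITGAL (2.13 ± 0.29) and ITGA4 (3.05 ± 0.47) and the endothelial ligand VCAM1 (1.60 ± 0.25); 1 of 10 was higher in hippocampus (CXCL10, 2.19 ± 0.42) and 3 of 9 in prefrontal cortex.

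Markers of other cells were also called in fWBI white matter, where 16.8% of all genes were, against which counts such as 1 of 3 are to be read. Of 11 tested monocyte and macrophage markers 8 were higher and 1 lower, with LYZ at 4.75 ± 0.42, SIGLEC1 at 4.08 ± 0.38 and CD68 at 3.70 ± 0.39. The summed level of the 12 genes of that list was 685 to 1243 CPM in fWBI, 484 to 1203 CPM in Control and 934 to 1257 CPM in TBI white matter, so the sums overlapped. Such a sum follows the most abundant genes of its list and sets no limit on the change of the called ones. Of 8 microglia markers 3 were higher, among them TREM2 (1.85 ± 0.28) and TYROBP (1.70 ± 0.26), and P2RY12 was lower (-1.36 ± 0.21), and their sum ran from 503 to 904 CPM in fWBI and 411 to 687 CPM in Control. Of the NK list 1 of 3 tested genes was higher (FCGR3, 2.56 ± 0.46), while KLRD1, with the negative value given above, was not called. The sums of the NK list were 778 to 1002 CPM in fWBI and 536 to 962 CPM in Control. KLRD1, also on the cytotoxic list, adds at most 10.2 CPM, the highest sum of that list in fWBI white matter. Most of the NK sum thus comes from other genes than KLRD1 and the rarely counted ones below the filter. It was 262 to 514 CPM in control prefrontal cortex too, and does not measure NK cells. The 4 NK genes below the filter had no test and are named after their values were seen. KLRF1, an NK receptor gene, had 16, 25, 9, 17 and 13 reads in fWBI white matter against 2, 6, 8, 3 and 2 in Control, so that every fWBI count lay above every control count. The sums over the 5 libraries were 43 against 18 reads for NCR3, 11 against 0 for SH2D1B and 2 against 0 for NCR1. Of the B and plasma cell list 1 of 3 was higher (BANK1, 1.54 ± 0.44), with sums of 39.0 to 60.8 CPM in fWBI and 20.2 to 48.3 CPM in Control. Of the dendritic cell list 1 of 3 was lower (BATF3, -1.01 ± 0.24), with sums of 54.7 to 105 CPM in fWBI and 46.9 to 96.4 CPM in Control. Of 7 endothelial genes 3 were higher and 1 lower, and of 13 neuronal genes 9 were lower, with control libraries 1 and 3 apart as described. Of the oligodendrocyte list 0 of 7 were called, and of 5 tested hippocampal markers WFS1 was higher (0.67 ± 0.13) and C1QL2 lower (-2.71 ± 0.49). The blood list stayed at or below 2.21 CPM in fWBI and control white matter. The part of these cells in the values of CD4, CD8A, CD8B and CD247 was not tested. Against Control, TBI animals had 0 genes of all 18 lists called in any region, where 0.0722% of all genes passed in white matter and 0% in hippocampus and prefrontal cortex.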

How the data were processed

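Raw read counts per gene were deposited by the authors as 1 table of 45 libraries; FastQC, STAR, featureCounts and DESeq2 appear in the submitters' processing notes. Build, gene annotation and the strand option of featureCounts: not given in the sources used here. Per the labels' protocols, libraries were stranded and ribosomal RNA was depleted. The counts were whole numbers with unequal totals. Symbols were paired with Ensembl IDs by a gene name table (15769 of 30246 IDs); of 237 symbols in 18 lists, 168 matched. No coordinates or sequences are given.

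Irradiation was tested within each region on its 15 libraries, regions within each treatment with animal as a block, and regional differences of effect over the 45 libraries together, again blocked by animal (edgeR 4.0.16 quasi-likelihood test, TMM scaling, filterByExpr, R 4.3.3, limma 3.58.1, two-sided, Benjamini-Hochberg threshold 0.05). Libraries of 1 animal deviated together across regions (median r = 0.29, 41 of 45 pairs above 0.1). Alternatives were DESeq2 1.42.0 and its size factors, limma-voom, no filter, other sets of libraries, a robust spread estimate and the block; log2 CPM used a prior count of 2. Added after seeing the data were the fits without control animals 1 and 2, the robust estimate, leaving out animals in the regional differences, and the further fits without a filter. Named genes were the 7 members, up to 3 called genes per list with the smallest adjusted p (otherwise the first 2 tested) and the closest 3 genes of the likeness measure; VAV1, LCP2, BCL11B and the genes of the receptor, cytotoxic and NK lists below the filter were added after their values were seen. Members, lists and rules were chosen with earlier results of these data known. The fit of fWBI against Control within a region was run on simulated counts of genes that pass the filter. Fits of rare genes without a filter, between regions and of regional differences were not simulated. No libraries agreed within sampling noise (smallest chi-square per gene 6.49 over 90 pairs). Overlaps of gene spans come from RefSeq's table of another assembly, used for neighbours only. Some genes of the lists and of the likeness measure are not reported here.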

Additional observations from a re-analysis of the deposited data

Results flagged for a closer look

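Among 63 sets of 5 libraries (7 genes in 9 groups), 6 held a library whose distance from its nearest neighbour, as a share of the range of the group, passed Dixon's critical value of 0.71 for 5 samples; chance gives about 1 in 20. Of these, 4 rest on few reads. CD3G stood at 0.2938 CPM (3 reads) in the hippocampus of control animal 3, with 0 in the other 4, and at 0.3236 CPM (3 reads) in the prefrontal cortex of fWBI animal 5. GZMK stood at 0.9026 CPM (9 reads) in the white matter of control animal 5, where the others had at most 0.1204 CPM, and at 2.2635 CPM (22 reads) in that of fWBI animal 3, where the others had 0.2134 to 0.7824 CPM. CD4 was 13.516 CPM in the prefrontal cortex of TBI animal 5, against 5.67 to 7.70 CPM in the others. CD8A was 1.6046 CPM in the white matter of control animal 5, against 8.93 to 10.4 CPM.

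The fWBI effect on CD3E was called different between regions in the edgeR test of the difference itself. It differed by 2.89938 (log2) between white matter and prefrontal cortex (adjusted p = 0.0153) and by 2.18025 between white matter and hippocampus (adjusted p = 0.0474). In these contrasts 10 and 9% of all genes passed. Both calls were lost without control white matter libraries 1 and 3 and without control animals 1 and 2. The white matter counts behind both were at most 14 reads per library.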

How the results depend on the processing

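Of 889 alternative values of the members, 799 kept direction and side of the threshold, 34 lost a call, 25 gained one and 31 changed sign; none of the 31 was called, and the largest was 0.35 in size. The cause of these changes was not tested, other than that fewer libraries or genes enter some fits. Low counts limit every member but CD4 and CD8A.

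The number of members called changed as follows. For fWBI against Control in white matter (0 of 2) it was 1 with limma-voom, without a filter and without control white matter libraries 1 and 3, and 2 without control animals 1 and 2; leaving out 1 animal gave 0 to 1. Without a filter the called member was CD8B. In the fits without those control libraries or animals, 1 called member was neither CD4 nor CD8A. More members than the 2 of the reported fit were thus tested there. In hippocampus (0) the number was 1 with DESeq2 and limma-voom, and 0 to 1 leaving out 1 animal. In prefrontal cortex (1) it was 0 with the 2 groups alone and without control animals 1 and 2, and 0 to 1 leaving out 1 animal. For fWBI against TBI it was 1 with the 2 groups alone in each region (0 in the reported fit), 1 without a filter in white matter, 1 with DESeq2 in hippocampus and prefrontal cortex and 1 with limma-voom in prefrontal cortex; leaving out 1 animal gave 0 to 1 in white matter and prefrontal cortex. Between white matter and hippocampus of Control animals (1) it was 2 without a filter and without white matter libraries 1 and 3, and 1 to 2 leaving out 1 animal; between white matter and prefrontal cortex (2) leaving out 1 animal gave 1 to 2. Without a filter, white matter against prefrontal cortex gave 3 in Control (CD3E added), 4 in fWBI (3 in the reported fit, CD247 added) and 3 in TBI animals (2 in the reported fit, CD247 added). Hippocampus against prefrontal cortex gave 2 without a filter in fWBI animals, and 1 to 2 leaving out 1 animal in TBI animals. For the difference of the fWBI effect between white matter and prefrontal cortex (1) it was 0 without control libraries 1 and 3 and without control animals 1 and 2, and 0 to 2 leaving out 1 animal; against hippocampus (1) it was 0 in these fits and without a filter, and 0 to 1 leaving out 1 animal.

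Animal numbers do not pair animals across treatments: deviations of same-numbered animals had a median r of 0.01, with 13 of 45 pairs above 0.1. With the number as a replicate block, CD4 for fWBI against TBI in prefrontal cortex was called (1.44, adjusted p = 0.0442; 1 member) and so was CD3E without a filter for fWBI against Control in white matter (2.09, adjusted p = 0.0425). Between regions, where the block is the animal itself, no replicate block left 1 member called between white matter and prefrontal cortex in Control (CD8A 1.13, adjusted p = 0.0682), 0 between white matter and hippocampus in Control (CD8A 0.99, adjusted p = 0.112) and 0 for the difference of the fWBI effect between white matter and hippocampus; CD8A between white matter and prefrontal cortex in fWBI had 1.04 (adjusted p = 0.0658).

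Signs changed in values near 0. Without control animals 1 and 2, CD4 for TBI against Control was -0.14, -0.35 and -0.35 in white matter, hippocampus and prefrontal cortex, the CD4 difference of the fWBI effect between hippocampus and prefrontal cortex 0.0047 the CD3E difference of the TBI effect there -0.045, and CD247 between white matter and hippocampus of Control, fitted without a filter, 0.19. With limma-voom in prefrontal cortex, CD8A was 0.11 for fWBI and 0.31 for TBI, and CD4 -0.092 for TBI. Leaving out 1 animal, TBI against Control ran from -0.088 to 0.63 (CD4) and -0.10 to 0.43 (CD8A) in hippocampus and from -0.17 to 0.40 (CD4) and -0.27 to 0.17 (CD8A) in prefrontal cortex. CD8A between hippocampus and prefrontal cortex of Control ran from -0.10 to 0.23, and its fWBI effect between white matter and hippocampus from -0.13 to 0.48. Between hippocampus and prefrontal cortex the fWBI effect on CD4 ran from -0.19 to 0.085, and the TBI effect from -0.13 to 0.39 on CD3E and -0.080 to 0.19 on CD4.

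Over all genes, counts moved by more than 1.5 times in several comparisons. For fWBI against Control 2567 genes were called in white matter (1657 with the 2 groups alone), 114 in hippocampus (72 without control animal 1, 357 without control animals 1 and 2) and 182 in prefrontal cortex (73 without control animal 3, 466 with DESeq2). For TBI against Control they were 11, 0 and 0 (733, 63 and 254 with DESeq2). For fWBI against TBI hippocampus had 52 (30 with the replicate block, 135 with DESeq2) and prefrontal cortex 45 (27 without fWBI animal 2, 93 with DESeq2).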
